A study of Mus musculus with 8 samples.

Results

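The Ikaros zinc finger family of the mouse has 5 genes, Ikzf1 (Ikaros), Ikzf2 (Helios), Ikzf3 (Aiolos), Ikzf4 (Eos) and Ikzf5 (Pegasus). They were taken by name, each matching 1 of the 47937 gene IDs counted. The comparison set 4 libraries of A-MuLV transformed pro-B cells given 0.5 µM dTAG-13 for 6 h against 4 given DMSO. A-MuLV is Abelson murine leukaemia virus, and the resulting lines are an immortal model of early B cells. All 8 libraries carried the genotype EBF1-dTAG_N, in which an introduced, degron-tagged EBF1 stands in for the endogenous protein. The compound dTAG-13 sends tagged proteins to degradation, and since no untagged cells were among the libraries, any further effect of the compound and the loss of EBF1 cannot be told apart. DMSO libraries are titled 0 h, although their treatment label reads 6 h. The labels call the libraries biological replicates and do not say whether they came from separate cultures, so p-values measure the spread between these libraries.

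Ikaros family proteins bind DNA through zinc fingers near the amino terminus and pair with each other through a second set of fingers at the carboxy terminus. Ikaros is required for lymphoid development, Aiolos acts at later B-cell stages, and Helios and Eos are best known from T cells. In precursor B cells Ikaros is known to compete with EBF1 at the promoter of Igll1, a surrogate light chain gene. The recruiting part of dTAG-13 binds cereblon, the ubiquitin ligase subunit through which thalidomide analogues degrade the human proteins IKZF1 and IKZF3. The RNA counts used here do not measure any protein.

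RNA was measured by sequencing of total RNA after removal of ribosomal RNA. Exonic depth was 33170855 to 38999496 reads per library in dTAG-13 and 28982316 to 38170273 in DMSO. Of these reads 25.7% to 28.4% in dTAG-13 and 26.2% to 29.3% in DMSO fell on 2 rRNA-overlapping genes. Intronic reads made up 20.4% to 27.3% of whole-gene reads in dTAG-13 and 22.2% to 26.1% in DMSO. Ebf1 RNA, which does not report the protein, was 723 to 816 CPM in dTAG-13 and 608 to 639 CPM in DMSO. CPM is exonic counts scaled to library size (the usual CPM unit, after TMM adjustment). The exonic log2 change of Ebf1 was 0.30 (edgeR adjusted p = 2.1e-07), a call lost with whole-gene counts. Its intronic log2 change of 0.09 did not pass (edgeR adjusted p = 0.665). Reads of the introduced and the endogenous Ebf1 were not told apart. Of 10 pro-B cell markers 9 passed the filter on low counts, with a summed level of 2251 to 2385 CPM in dTAG-13 and 2986 to 3053 CPM in DMSO, and Kit was at 0 in every library. Of 5 T-cell markers Cd3e, Cd3g, Cd4 and Cd8a were at 0 in every library, and the sum was 0.0510 to 0.514 CPM in dTAG-13 and 0 to 0.207 CPM in DMSO. The myeloid markers summed to at most 1.12 CPM in dTAG-13 and 0.449 CPM in DMSO, and Cd14 was at 0. Stromal markers reached at most 0.272 CPM in dTAG-13 and 0.0522 CPM in DMSO, with Pdgfrb at 0. Of the plasma cell markers Prdm1 was at 0 and the sum was 5.86 to 6.71 CPM in dTAG-13 and 8.19 to 9.74 CPM in DMSO. Foxp3, which defines regulatory T cells, averaged 0 CPM in dTAG-13 and 0.0152 ± 0.0179 CPM in DMSO (SD, n = 4 each). The other 2 regulatory T-cell markers were Il2ra, at 13.4 ± 1.90 CPM in dTAG-13 and 10.8 ± 1.57 CPM in DMSO, and Ctla4, at 0.235 ± 0.0357 CPM in dTAG-13 and 0.115 ± 0.0497 CPM in DMSO (SD, n = 4 each). The part of these markers in the results was not tested.

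Of the 5 family genes, Ikzf1, Ikzf3 and Ikzf5 were transcribed at levels that could be tested. Ikzf1 alone passed the test, 1.28-fold higher after dTAG-13. In exonic reads 28.3% of all tested genes passed, 14.3% as higher, so a single call among so few members is near the background. Among the genes called higher, 44.4% changed by more than Ikzf1. Ikzf1 was also the most abundant member, and its share of the family's RNA was larger after dTAG-13. Ikzf3 and Ikzf5 did not pass, with exonic log2 changes of 0.05 and -0.08. Ikzf2 had no exonic read in any library, and Ikzf4 had 10 in all.

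Ikzf1 (ENSMUSG00000018654.17) lies on chromosome 11, 11685003 to 11772926, plus strand, in GRCm38 (GENCODE vM21). It spans 10 blocks of exon that cover 5777 bases, and its introns cover 82147 bases. RefSeq (GRCm38.p6) gives this gene 2 start sites. The 250 bases before each are shown because Ikzf1 is the member whose RNA changed, with the Ikaros core letters GGGAA, read on either strand, in capitals. The first window is chr11:11685675-11685924 and the second chr11:11689927-11690176, both on the plus strand. Both lie inside the GENCODE span of the gene, which starts at 11685003. Bases just after the first window occur in a GENCODE transcript of Ikzf1, and those just after the second do not.
Ikzf1 upstream start: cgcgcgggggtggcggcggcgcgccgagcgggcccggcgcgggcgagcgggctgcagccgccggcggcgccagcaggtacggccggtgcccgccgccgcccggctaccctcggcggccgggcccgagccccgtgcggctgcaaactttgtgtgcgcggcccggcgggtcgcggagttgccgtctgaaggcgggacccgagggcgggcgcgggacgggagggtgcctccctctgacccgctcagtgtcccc
Ikzf1 downstream start: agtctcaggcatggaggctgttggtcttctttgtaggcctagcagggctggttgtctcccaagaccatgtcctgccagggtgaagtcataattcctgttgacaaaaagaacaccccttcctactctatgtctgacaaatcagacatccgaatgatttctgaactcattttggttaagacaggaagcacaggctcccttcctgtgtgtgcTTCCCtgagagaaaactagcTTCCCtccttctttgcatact
The upstream window is 82.0% G and C and holds no GGGAA, and the downstream one is 47.6% G and C and holds 2, both as TTCCC on the plus strand. Neither holds the EBF1 letters, TCCC and GGGA with 2 bases between them, which read the same on either strand. The Ikaros core is found in 56.2% of 32851 such mouse windows and the EBF1 letters in 0.779%. The longer Ikaros letters TGGGAA, which contain the core, are found in 21.6% of windows and in neither of these. RefSeq windows were at hand for Ikzf5 too, with 1 GGGAA and no EBF1 letters. These matches describe letters and not binding, which was not measured.

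Exonic Ikzf1 measured 318, 316, 318 and 304 CPM in the dTAG-13 libraries, against 248, 247, 246 and 243 CPM in the DMSO libraries. The lowest dTAG-13 library lay well above the highest DMSO library, and replicates within a group were close, with a coefficient of variation of 2.18% in dTAG-13 and 0.877% in DMSO. The log2 change was 0.35 ± 0.03 (SE, 95% interval 0.28 to 0.42, edgeR adjusted p = 4.0e-09). In the same fit 28.3% of 12889 genes passed at an adjusted p below 0.05 (14.3% as higher), so 1 of 3 tested members is near the background. Among the 1841 genes called higher, 44.4% changed by more than Ikzf1. Groups did not overlap for 27.7% of all tested genes in exonic and 19.5% in intronic reads. Values are shares of a library's RNA, so a change in RNA per cell and one in the number of cells that carry it cannot be told apart.

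Intronic reads of Ikzf1 rose as well. Intronic reads, the whole-gene count minus the exonic count, come mostly from RNA not yet spliced. They measured 1228, 1187, 1174 and 1241 CPM of intronic reads in dTAG-13, against 993, 927, 1023 and 1046 CPM in DMSO. Again every dTAG-13 library lay above every DMSO library. The intronic log2 change was 0.28 ± 0.07 (SE, 95% interval 0.14 to 0.42, edgeR adjusted p = 0.0048), in a fit that called 16.8% of 11229 genes (8.26% higher, 8.50% lower). Here too 1 of the 3 tested members passed, and 83.5% of the 927 genes called higher changed by more than Ikzf1. The exonic change exceeded the intronic one by 0.07 on the log2 scale, a difference that did not pass the test (95% interval -0.07 to 0.21, edgeR adjusted p = 0.878), and it did not pass without any 1 library either. That test of difference called 0.309% of 10026 genes (0.160% with the larger exonic and 0.150% with the larger intronic change), and none of the 3 members at an adjusted p below 0.05 or at an unadjusted p below 0.05.

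**Figure D1:**
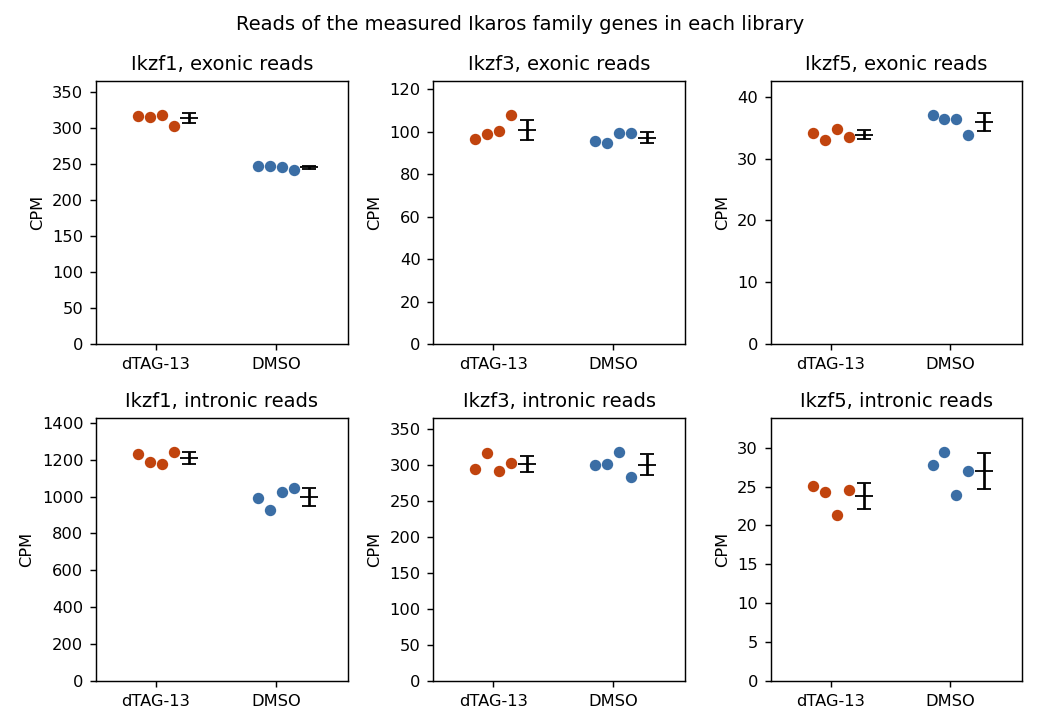
Exonic (top) and intronic (bottom) CPM of Ikzf1, Ikzf3 and Ikzf5 in each library, dTAG-13 in orange and DMSO in blue, with the mean and SD of 4 libraries in black and every axis from 0. Ikzf1 groups are apart in both rows (304 to 318 against 243 to 248 exonic CPM), while those of Ikzf3 and Ikzf5 overlap.

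Ikzf3, which encodes Aiolos, was on chromosome 11 too (98464902 to 98546031, minus strand). It measured 96.4, 98.9, 100.1 and 107.6 exonic CPM in dTAG-13, against 95.5, 94.4, 99.4 and 99.3 CPM in DMSO. Apart from the dTAG-13 library at 107.6 CPM, all libraries fell between 94.4 and 100.1 CPM, and the groups overlapped. The log2 change was 0.05 ± 0.04 (SE, 95% interval -0.03 to 0.13, edgeR adjusted p = 0.391). Intronic Ikzf3 reads gave 302 ± 11.4 CPM in dTAG-13 and 301 ± 14.2 CPM in DMSO (SD, n = 4 each). Their log2 change was 0.01 (95% interval -0.12 to 0.13, edgeR adjusted p = 0.971).

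Ikzf5, which encodes Pegasus, the most divergent member, lies on chromosome 7 (131388652 to 131410521, minus strand). It measured 34.18, 33.04, 34.84 and 33.47 exonic CPM in dTAG-13, against 36.98, 36.44, 36.32 and 33.86 CPM in DMSO. All DMSO libraries but 1 were above every dTAG-13 library, and the exception lay among them. The log2 change was -0.08 ± 0.05 (SE, 95% interval -0.19 to 0.02, edgeR adjusted p = 0.250). Intronic reads gave 23.8 ± 1.70 CPM in dTAG-13 and 27.1 ± 2.32 CPM in DMSO (SD, n = 4 each), a log2 change of -0.18 (95% interval -0.41 to 0.05, edgeR adjusted p = 0.313). These rest on 228 to 312 intronic reads per library, and the interval is accordingly wide.

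**Figure D2:**
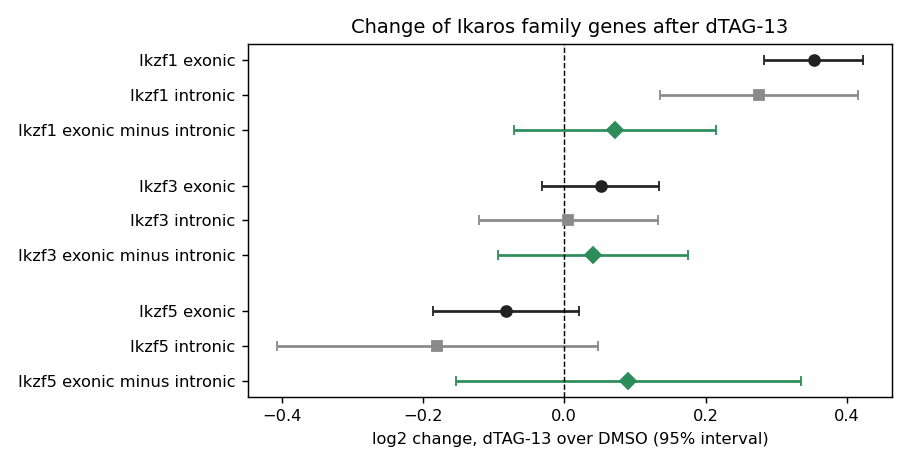
Fitted log2 change, dTAG-13 over DMSO, of exonic reads (black), intronic reads (grey) and their difference (green) for the 3 tested genes, with 95% intervals. Only the exonic and intronic intervals of Ikzf1, 0.28 to 0.42 and 0.14 to 0.42, lie clear of 0.

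Ikzf2 and Ikzf4, both known from regulatory T cells, were at or near the limit of detection. Ikzf2 (Helios, chromosome 1, 69531214 to 69687245) had 0 exonic reads in all 8 libraries, and a count of 0 allows up to 0.0769 to 0.0904 CPM in a dTAG-13 library and 0.0786 to 0.104 CPM in a DMSO library (3 reads, counting error only). It had 0 intronic reads in dTAG-13 and 2 in DMSO. Ikzf4 (Eos, chromosome 10, 128630843 to 128645991) had 2, 0, 3 and 5 exonic reads in the dTAG-13 libraries and 0 in each DMSO library. One dTAG-13 library was thus at 0 like the controls. Without a filter on low counts Ikzf4 did not pass the edgeR test (adjusted p = 0.0787), and DESeq2 gave it no adjusted value. Ikzf4 had 0 intronic reads in dTAG-13 and 1 in DMSO. The ID of Ikzf4 carries another version in the files than in GENCODE vM21, so its coordinates there may differ from those counted.

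Levels can be compared between members only per length of exon. Ikzf1 stood at 54.4 ± 1.19 exonic CPM per kb in dTAG-13 and 42.6 ± 0.377 in DMSO (SD, n = 4 each). Ikzf3 followed at 11.5 ± 0.551 CPM per kb in dTAG-13 and 11.1 ± 0.297 in DMSO, and Ikzf5 at 5.92 ± 0.139 CPM per kb in dTAG-13 and 6.27 ± 0.243 in DMSO (SD, n = 4 each). Both steps were larger than the spread over libraries, and Ikzf4 came below Ikzf5 at no more than 0.0238 CPM per kb in any library. Among 12845 tested genes with a known length Ikzf1 ranked at 540 in dTAG-13 and at 773 in DMSO. Ikzf1 made up 75.7% ± 0.949 of the family's exonic CPM per kb in dTAG-13 and 71.0% ± 0.338 in DMSO (SD, n = 4 each). Ikzf3 made up 16.04% ± 0.915 in dTAG-13 and 18.5% ± 0.558 in DMSO, and Ikzf5 8.25% ± 0.144 in dTAG-13 and 10.5% ± 0.336 in DMSO (SD, n = 4 each). Shares add up to a fixed whole, so a larger share of Ikzf1 leaves less for the others. The mean level of Ikzf3 per kb was not lower in dTAG-13 (11.5 against 11.1 in DMSO). Exon lengths are unions over all annotated transcripts, and the transcripts in use were not resolved.

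Whether members responded differently was tested on the ratio of their reads within a library, which does not depend on library scaling. Per read of Ikzf3 there were 3.297, 3.195, 3.178 and 2.823 exonic reads of Ikzf1 in the dTAG-13 libraries, against 2.593, 2.618, 2.472 and 2.446 in the DMSO libraries. The groups were apart, by 0.30 on the log2 scale (two-sided exact permutation p = 0.0286, Benjamini-Hochberg adjusted p = 0.0429 over 3 pairs). For Ikzf1 over Ikzf5 the ratio was 9.07 to 9.56 in dTAG-13 and 6.70 to 7.17 in DMSO, a log2 difference of 0.44 (exact permutation p = 0.0286, adjusted p = 0.0429), with the groups again apart. Ikzf3 over Ikzf5 was 2.82 to 3.21 in dTAG-13 and 2.58 to 2.93 in DMSO, which overlap (log2 difference 0.13, exact permutation p = 0.0857, adjusted p = 0.0857). The smallest p that 4 against 4 libraries can give is 0.0286.

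No treatment difference was detected in the intronic share of reads of any tested member. Of whole-gene Ikzf1 reads 53.8% ± 4.27 were intronic in dTAG-13 and 55.7% ± 2.85 in DMSO (SD, n = 4 each, two-sided exact permutation p = 0.486). For Ikzf3 the share was 47.6% ± 3.42 in dTAG-13 and 49.1% ± 2.21 in DMSO (SD, n = 4 each, exact permutation p = 0.486). For Ikzf5, whose introns are much shorter, it was 17.7% ± 2.85 in dTAG-13 and 19.0% ± 0.686 in DMSO (SD, n = 4 each, exact permutation p = 0.457). The adjusted p over these 3 genes was 0.486 for each. Over all genes the share was 23.2% ± 3.13 in dTAG-13 and 23.9% ± 1.63 in DMSO (SD, n = 4 each).

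Other annotated genes overlap the members. Gm12000, an antisense RNA within Ikzf1, had 1 whole-gene read over the dTAG-13 libraries and 6 over the DMSO libraries. Ikzf1 itself had 54976 intronic reads in dTAG-13 and 41906 in DMSO. Gm11999, on the other strand at the Ikzf1 start, had 44 whole-gene reads in dTAG-13 and 9 in DMSO. Gm25106, a small nuclear RNA gene within Ikzf3 on its own strand, had 27 reads in dTAG-13 and 16 in DMSO. Ikzf5 lies inside an annotated Fgfr2 span of 2961 kb on the same strand. Fgfr2 had 0 exonic and 343318 whole-gene reads over the 8 libraries. The whole-gene reads of minus-strand genes inside that span summed to 307298 and those of plus-strand genes to 104652. Gm44625, within Ikzf5 on its strand, had 85 whole-gene reads in dTAG-13 and 125 in DMSO, where Ikzf5 had 1085 intronic reads in dTAG-13 and 1115 in DMSO. Reads of Ikzf5 can therefore stand in the whole-gene count of Fgfr2 as well, and the fitted intronic change of Fgfr2 is not used here. Pstk overlaps Ikzf5 on the other strand and had 2985 whole-gene reads in dTAG-13 and 2749 in DMSO. The strand setting is not given, and whether reads of Pstk or Gm44625 stand in the Ikzf5 counts was not resolved.

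Next to Ikzf1 on chromosome 11, Ddc rose and Fignl1 did not pass the test. Ddc, which encodes aromatic L-amino acid decarboxylase and starts 213.1 kb from the Ikzf1 start, averaged 3.29 ± 0.409 exonic CPM in dTAG-13 and 1.84 ± 0.271 in DMSO (SD, n = 4 each). Its log2 change was 0.83 ± 0.19 in exonic reads (SE, edgeR adjusted p = 0.0011) and 1.00 ± 0.14 in intronic reads (SE, edgeR adjusted p = 1.3e-05). Fignl1, a DNA repair gene that lies between Ikzf1 and Ddc, 14.5 kb from the Ikzf1 end, averaged 81.6 ± 3.02 CPM in dTAG-13 and 83.5 ± 3.37 in DMSO (SD, n = 4 each, log2 change -0.03, edgeR adjusted p = 0.613). Spata48, on the other side, had a log2 change of 0.14 (edgeR adjusted p = 0.784). Around Ikzf3 none of 4 neighbours passed in exonic reads (adjusted p below 0.05). Over all tested genes 28.3% did, and 4 neighbours are too few to read 0 against that. The nearest, Zpbp2, was at 0.429 ± 0.188 CPM in dTAG-13 and 0.432 ± 0.135 in DMSO, and Ormdl3, an inhibitor of sphingolipid synthesis, was at 21.9 ± 1.07 CPM in dTAG-13 and 20.6 ± 1.35 in DMSO (SD, n = 4 each). Mien1 and Grb7 had log2 changes of 0.12 and -0.52 (edgeR adjusted p = 0.221 and 0.201). Beside the nearly silent Ikzf4, the ribosomal protein gene Rps26 averaged 551 ± 28.4 CPM in dTAG-13 and 571 ± 17.6 in DMSO (SD, n = 4 each, edgeR adjusted p = 0.351). Rab5b, an endosomal GTPase gene, had a log2 change of 0.01 (edgeR adjusted p = 0.901), and Erbb3 was below the filter. Suox, which encodes sulfite oxidase, was at 1.65 ± 0.733 CPM in dTAG-13 and 0.860 ± 0.258 in DMSO (SD, n = 4 each), a log2 change of 0.95 that passed (edgeR adjusted p = 0.0249) but not without any 1 of 4 libraries, dTAG-13 replicates 1 or 3 or DMSO replicates 1 or 4. Acadsb, whose start is 0.1 kb from that of Ikzf5 on the other strand, had a log2 change of 0.10 (edgeR adjusted p = 0.303), and Pstk one of -0.01 (edgeR adjusted p = 0.964). Spag16 beside Ikzf2 and Fam24a, Fam24b and Hmx3 beside Ikzf5 were below the filter.

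**Figure D3:**
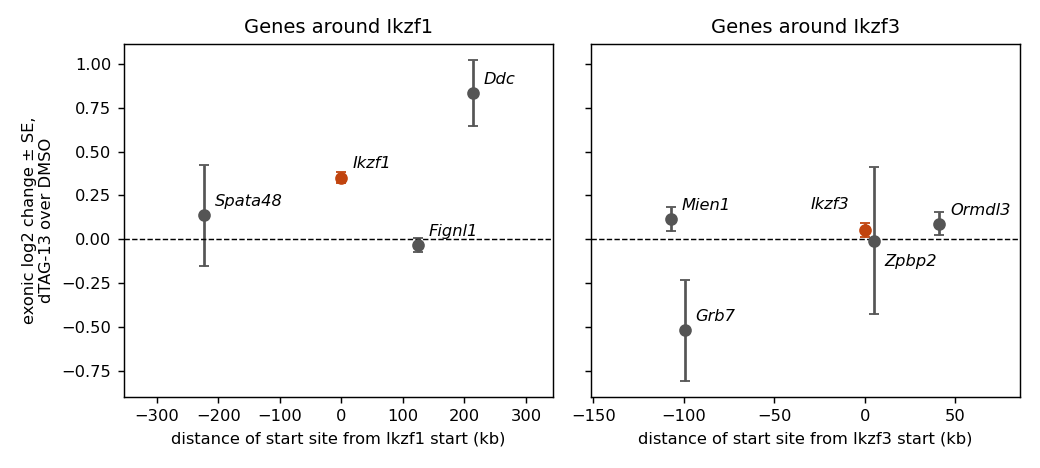
Exonic log2 change ± SE, dTAG-13 over DMSO, of Ikzf1 and Ikzf3 (orange) and their tested neighbours (grey) by the distance between start sites in kb. Ddc, at 0.83, lies above Ikzf1 at 0.35, while Fignl1 between them is at -0.03.

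The genes whose exonic CPM ran most like that of Ikzf1 over the 8 libraries were Epn1, Tnfrsf1b and Jun, among 8007 compared genes of at least 10 CPM. Epn1, an endocytic adaptor gene, had a Pearson r of 0.998 with Ikzf1 on the log2 scale and averaged 164 ± 5.98 CPM in dTAG-13 and 103 ± 0.946 in DMSO (SD, n = 4 each). Tnfrsf1b, a TNF receptor gene, and the AP-1 gene Jun followed at r = 0.997 and r = 0.9965, with log2 changes of 0.72 and 1.00. The points fall into the treatment groups, so r with Ikzf1 mostly reflects that these genes were higher in dTAG-13, and 465 genes reached at least 0.95. With group means taken out r was 0.854 for Epn1, 0.761 for Tnfrsf1b and 0.871 for Jun. These rest in large part on dTAG-13 replicate 4, where exonic Ikzf1 was 303.8 CPM beside 316 to 318 in the other dTAG-13 libraries. For Ikzf3 the nearest were Krit1 (r = 0.967), Sft2d1 (r = 0.916) and Elmo1 (r = 0.916). For Ikzf5 they were Mrpl43 (r = 0.969), Rnf7 (r = 0.964) and Paip2b (r = 0.958). With group means taken out r was 0.891 to 0.958 for the genes named for Ikzf3 and 0.916 to 0.947 for those named for Ikzf5. Libraries of a group share their treatment, depth differed between libraries, and the genes were picked as the highest of many.

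NuRD is the nucleosome remodelling and deacetylase complex that Ikaros proteins bind. In exonic reads its subunits were called about as often as all tested genes, of which 28.3% passed. Of 15 tested genes 2 were higher and 2 lower in exonic reads, with a median log2 change of -0.004 beside -0.003 over all tested genes. Chd3, an ATPase subunit, averaged 309 ± 5.80 CPM in dTAG-13 and 232 ± 7.27 in DMSO (SD, n = 4 each, log2 change 0.41, edgeR adjusted p = 4.2e-10). Mta3 rose too, by 0.39 ± 0.08 (SE, edgeR adjusted p = 0.00069), to 16.2 ± 0.615 CPM in dTAG-13 against 12.4 ± 1.43 in DMSO (SD, n = 4 each). The methyl-CpG binding gene Mbd2 changed by -0.22 and the scaffold gene Gatad2a by -0.17 (edgeR adjusted p = 7.9e-05 and 0.0015). Chd4, the main ATPase of the complex in lymphocytes, was at 577 ± 16.7 CPM in dTAG-13 and 553 ± 9.03 in DMSO (SD, n = 4 each, edgeR adjusted p = 0.186). In intronic reads 3 of the 15 were higher, Chd3, Mta3 and Chd4 (log2 changes 0.45, 0.44 and 0.21), and Rbbp4 was lower (-0.25). Over all genes of the intronic fit 16.8% passed, 8.26% as higher and 8.50% as lower, and the list was not tested against these shares. Of the other corepressors known to bind Ikaros proteins, Ctbp2 rose, to 25.4 ± 1.46 CPM in dTAG-13 against 20.9 ± 1.90 in DMSO (SD, n = 4 each, edgeR adjusted p = 0.0022). Sin3a, Sin3b and Ctbp1 had log2 changes between -0.07 and 0.01 and did not pass, and in intronic reads none of the 4 passed, with 1 at an unadjusted p below 0.05 and 0 called by DESeq2.

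None of the 5 tested genes of the cereblon ligase passed the edgeR test in exonic or intronic reads at an adjusted p below 0.05. Over all tested genes 28.3% passed in exonic and 16.8% in intronic reads, and 5 genes are too few to read 0 against that. At an unadjusted p below 0.05 0 of the 5 passed in exonic and 1 in intronic reads, and DESeq2 called 0 in both. Crbn, which encodes cereblon, averaged 21.2 ± 0.777 CPM in dTAG-13 and 20.9 ± 1.49 in DMSO (SD, n = 4 each, log2 change 0.02, edgeR adjusted p = 0.852). Exonic log2 changes of Ddb1, Cul4a, Cul4b and Rbx1 lay between -0.05 and -0.01.

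Genes reported to be under Ikaros control in precursor B cells fell for 13 of the 19 tested and rose for 2, with a median log2 change of -0.54 beside -0.003 over all tested genes, where 14.0% were called lower. The list gives no direction of control for its genes, so these counts and the median do not measure Ikaros activity. Several of the genes, Igll1 and Vpreb1 among others, are EBF1 target genes as well, and the list was written with earlier results of these libraries known. The pre-B receptor genes Vpreb2, Igll1 and Vpreb1 and the growth regulator Myc had the smallest p, with exonic log2 changes of -2.89, -2.39, -1.63 and -1.42 (edgeR adjusted p at most 4.9e-19). Vpreb1 and Vpreb2 are close copies that can share reads. The 2 that rose were Cdk6, a G1 kinase gene, at 459 ± 7.73 CPM in dTAG-13 and 376 ± 9.66 in DMSO, and the repressor gene Bcl6, at 3.76 ± 0.577 CPM in dTAG-13 and 2.61 ± 0.372 in DMSO (SD, n = 4 each). Bcl6 (exonic log2 change 0.53, edgeR adjusted p = 0.0257) did not pass without dTAG-13 replicates 1 or 2 or DMSO replicates 1 or 4, and the count of higher genes then was 1. Ccnd2, Cdkn1a, Cdkn1b and Dntt did not pass. In intronic reads 9 of 16 tested genes were lower and 1 higher, Bcl6 (0.72), with a median of -0.49. Over all 11229 genes of the intronic fit 8.50% were lower and 8.26% higher, with a median of -0.003.

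**Figure D4:**
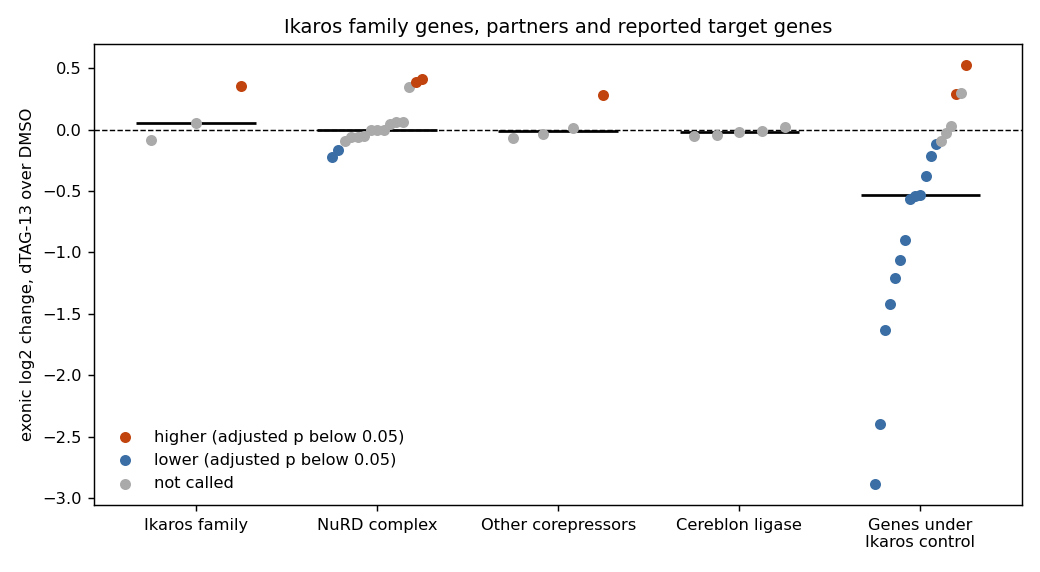
Exonic log2 change, dTAG-13 over DMSO, of the tested genes of each group, higher in orange, lower in blue and not called in grey, with the median of each group as a black line. Ikzf1 at 0.35 is the highest of the family, the partner genes centre near 0, and the genes reported under Ikaros control have a median of -0.54.

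The authors' deposited table gave Ikzf1 a log2 fold change of 0.35 in exonic and 0.27 in intronic reads (adjusted p = 9.2e-34 and 2.4e-06). For Ikzf3 the authors' deposited table has 0.05 and 0.01 and for Ikzf5 -0.08 and -0.14, with adjusted p between 0.310 and 0.955. The direction of the authors' deposited table is not stated in its header, and for these 3 genes its signs are those of dTAG-13 over DMSO here. Its log2 fold changes look pulled toward 0. For exonic Ikzf4 it has 0.04, where DESeq2 here gave 3.62, both with an unadjusted p of 0.0639. Sizes in the authors' deposited table are therefore not the same measure as the fitted changes above.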

How the data were processed

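RNA of 8 libraries, 4 dTAG-13 and 4 DMSO, was grouped by its titles and treatments. The deposited counts are raw reads per gene, over exons in 1 table and over whole genes in another. Among the tools in the submitters' processing notes are Subread 2.0.0 with featureCounts, STAR 2.7.4a and DESeq2. The genome builds listed there are GRCm38.p4 and mm10. The strand setting and annotation release are not given in the sources used here. The authors' deposited table holds log2 fold changes with SE, p-values and adjusted p-values, per the file headers.

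Exonic counts, and intronic counts (whole-gene minus exonic, never negative), went into the quasi-likelihood F test of edgeR 4.0.16 (R 4.3.3). TMM factors, filterByExpr (minimum count 10, minimum total 15), treatment as the only term and Benjamini-Hochberg adjustment over all tested genes (threshold 0.05) were used. The SE is the size of the log2 change over the root of F. Exonic and intronic change were compared in 1 model over 16 columns with the library as a block. Pair ratios (pseudocount 0.5 reads) and intronic shares were compared by two-sided exact permutation. The fits were checked on simulated counts. Their spread between libraries was below that of the measured intronic reads. The check therefore says less about the intronic fit and about the comparison of exonic and intronic change.

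Named genes were the members, up to 2 named protein-coding neighbours per side within 200 kb, the 3 genes most like each tested member, and up to 4 genes of each list with the smallest p, with further list genes chosen after their values were seen. Members and lists were chosen with earlier results of these data known. Alternatives were DESeq2 1.42.0, its size factors in edgeR, no filter, a replicate block, whole-gene counts, leaving out 2 rRNA-overlapping genes, upper-quartile scaling, another pseudocount, and leaving out each library. No library was a copy of another in its group, with a chi-square per degree of freedom between 4.55 and 12.4 for every pair.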

Additional observations from a re-analysis of the deposited data

Results flagged for a closer look

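Of 18 sets of 4 libraries examined over the members (exonic CPM, intronic CPM and intronic share in each group), 1 had a library far from the others, and chance marks about 1 set in 20. Exonic Ikzf1 in dTAG-13 replicate 4 was 303.8 CPM, below 316 to 318 CPM in the other dTAG-13 libraries and above the highest DMSO library at 248 CPM. That library also had the largest intronic share of reads over all genes in dTAG-13, 27.3%, and the highest exonic Ikzf3, 107.6 CPM. What sets it apart was not tested.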

How the results depend on the processing

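All 215 alternative values for the members kept their direction, where the value was called, and, in fits over all genes, their side of the threshold. The exonic log2 change of Ikzf1 was between 0.35 and 0.37 without each library in turn and between 0.31 and 0.35 under 6 other settings, lowest with whole-gene counts, with adjusted p of at most 8.3e-05. The intronic change was 0.24 to 0.31 without each library and 0.27 to 0.28 otherwise, with adjusted p of at most 0.0152. For Ikzf3 and Ikzf5 exonic changes ranged from 0.02 to 0.07 and from -0.11 to -0.07 over those fits, with adjusted p of at least 0.157. With 1 library left out the exact permutation tests of ratios cannot go below p = 0.0571, and as 4 pairs not below 0.125, so they then give values only: 0.27 to 0.35 for Ikzf1 over Ikzf3 and 0.42 to 0.46 for Ikzf1 over Ikzf5. Libraries of the same number did not deviate together (correlations 0.0453, 0.00345, -0.0237 and 0.0231), so they were not taken as pairs. With the replicate block the pairing changed no call of a member, and the number of genes called was 3753 in exonic and 1937 in intronic reads, against 3649 and 1881 without it. The count of genes under Ikaros control that were higher was 1 to 2 without each library in turn, and that of lower genes 13 to 14, with 12 under whole-gene counts, where the call of Blnk was lost. The number of genes whose exonic and intronic change differed was 10 to 22 without each library and 103 without a filter, against 31, and no member was among them. The difference for Ikzf1 was 0.04 (without DMSO replicate 4) to 0.10 (without DMSO replicate 2), against 0.07. Depth limits what can be said of Ikzf2 and Ikzf4, with 0 to 5 exonic reads per library, and of intronic Ikzf5.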
